A study of Mus musculus with 10 samples.

Results

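The genes described here build and regulate the machinery that carries vesicles to a membrane and fuses them with it. They comprise the Rab GTPases and the Rab regulators that share their name, the Vamp, Stx and Snap SNARE proteins, the syntaxin-binding proteins, the synaptotagmins and synaptotagmin-like proteins, the exocyst subunits and the Unc13 priming factors. Members were taken by name alone from the deposited table, which lists 12160 genes, and 107 names fitted. Of these, 51 are Rab GTPases, and 2 are not protein-coding: Rab10os is an antisense RNA and Stxbp3-ps a pseudogene that can share reads with Stxbp3. The mouse annotation (GENCODE, genome build mm9, also named NCBIM37) holds 141 names of this form, and 101 of them are in the table, which omits genes of low variance.

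RNA was sequenced by Smart-Seq2, a method for very small numbers of cells, from the pancreas of wild-type male CD1 mice in which repeated caerulein, a cholecystokinin analogue that overdrives acinar secretion, had caused pancreatitis. The strain field of the sample records reads "Mixed", and the age of the mice is not given there. Tuft cells (Cd45-neg; EpCAM+; Siglec f+) and non-tuft epithelial cells (Cd45-neg; EpCAM+; Siglec f-neg) were sorted from the same 5 mice, with 5 libraries in each group. The main comparison did not pair the libraries by mouse. Every tuft library came from 100 cells of 1 mouse, all libraries were from injured pancreas, and no healthy or untreated group was analysed here. The non-tuft gate takes whatever epithelium is left, so acinar, ductal and islet cells may all be in it.

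A Rab GTPase marks a vesicle and, in its GTP-bound form, recruits the tethers and motors that bring it to its target. An R-SNARE on the vesicle (a Vamp) then pairs with a syntaxin and a Snap protein on the target membrane, under the control of syntaxin-binding (Munc18-type) proteins, and the exocyst tethers vesicles at the plasma membrane. In the acinar cell this machinery releases digestive enzymes from zymogen granules at the apical surface, with Rab3d, Rab27b, Vamp2, Vamp8, Stx2, Stx3, Snap23 and Stxbp2 among its known parts. Tuft cells are chemosensory cells that release cytokines, lipid mediators and acetylcholine, and their secretory machinery is less well described.

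Values are log2(RPKM + 1) after quantile normalization, so they are levels per transcript length and may be compared between genes, and differences are tuft minus non-tuft on that scale. The read depth is unknown. A gene at the lowest value of its library (0 everywhere except non-tuft library 2, where it is 0.17) is called at floor level. Of 17 tuft markers, 16 were called higher in tuft cells, and each of the 17 was above the floor in every tuft library. The summed level of the tuft markers (log2) was 12.22 to 13.68 in tuft libraries, 7.83 to 9.25 in non-tuft libraries 1, 2 and 5, and 3.33 and 4.25 in non-tuft libraries 3 and 4. The summed level of 17 acinar markers was 16.92 to 17.23 in non-tuft libraries and ranged from 10.48 in tuft library 5 to 16.72 in tuft library 4. Of 9 fibroblast and endothelial markers, none was at floor level in library 5 of either group (summed levels 9.65 and 8.05), while they reached at most 5.97 elsewhere. In bulk libraries, fewer cells of a type and less RNA per cell cannot be told apart.

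A gene was called when limma gave a Benjamini-Hochberg adjusted p under 0.05 over all listed genes and the fold exceeded 4. By this rule 8 members were called higher in tuft cells: Rab44, Rab3b, Rab2b, Rab25, Rab4a, Rab27a, Rab4b and Stx7. Another 3 were called lower: Rab34, Stxbp6 and Rab26. The 8 are 7.48% of members against 4.32% of all listed genes, and the 3 are 2.8% of members against 3.99% of all genes. With the adjusted p alone, Vamp8 joined the higher members to make 9 (8.41%, against 6.19% of all genes), and Rab3il1 joined the lower ones to make 4 (3.74%, against 5.55%). The groups did not overlap, with every tuft library above every non-tuft one, in 12 members (11.2%, against 6.31% of all genes), and the reverse held in 5 (4.67%, against 5.12%). The other 94 members did not pass the test, and the median difference over all 107 was 0.28 against 0.02 over all genes. When libraries were instead centred on 78 ribosomal protein genes, the median over all genes moved to 0.72 and the members divided into 14 higher and 2 lower, while all genes called moved to 9.1% higher and 2.01% lower, so the members' counts moved in the same directions as those of all genes.

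**Figure D1:**
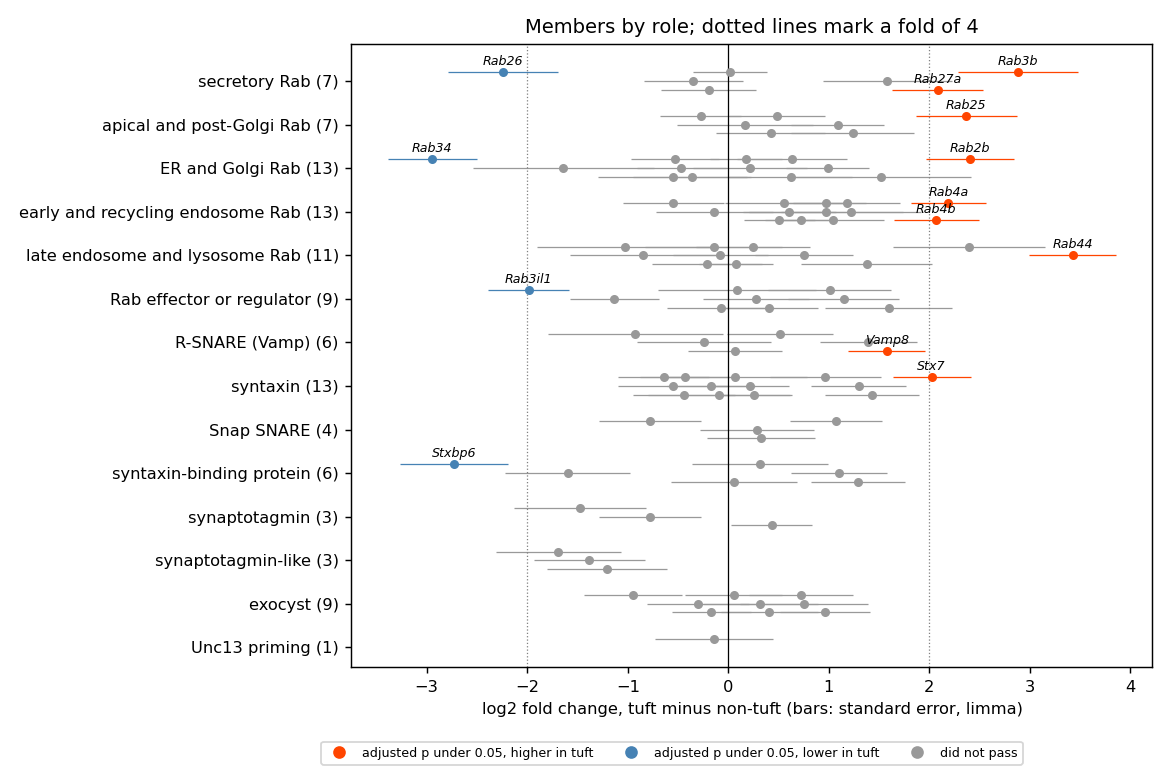
Difference between tuft and non-tuft libraries (x axis, log2, tuft minus non-tuft) for each member, in rows by role with the number of members in parentheses. Points are limma estimates with bars of 1 standard error, coloured where the adjusted p was under 0.05, and named members lie on both sides of 0 with Rab34 at -2.94 and Rab44 at 3.42.

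Among the secretory Rabs, which dock granules at the plasma membrane, Rab3b and Rab27a rose in tuft cells. Rab3b (chr4:108551668-108615929) is a Rab3 isoform of regulated secretion. Its level was 3.17, 2.56, 1.05, 0.71 and 3.50 in non-tuft libraries 1 to 5 and 5.19, 5.86, 4.17, 4.60 and 5.59 in tuft libraries 1 to 5. Every tuft library lay above every non-tuft one, and the mean was 5.08 ± 0.70 (SD, n = 5) in tuft cells against 2.20 ± 1.26 (SD, n = 5), a difference of 2.88 (SE 0.60), or 7.37-fold (adjusted p = 0.00655). The 3 non-tuft libraries with the higher Rab3b levels (1, 2 and 5) are those with the higher summed level of tuft markers, and the part of that RNA in the result was not tested. With non-tuft libraries 3 and 4 alone as the non-tuft group, Rab3b was still called. Its nearest relative in the acinar granule, Rab3d, did not pass the test: its level was 4.05, 4.02, 3.94, 4.33 and 4.94 in non-tuft libraries and 4.34, 3.76, 4.61, 4.13 and 4.53 in tuft libraries. The groups overlapped, with a difference of 0.02 (SE 0.37, adjusted p = 0.983).

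The region of 250 bases upstream of the RefSeq start is shown for these Rab3 isoforms, 1 of which was called while the other was not, and for Rab25, the member with the highest mean level. Capitals mark each E-box, searched as CANNTG on both strands, the letters bound by the basic helix-loop-helix family to which the acinar factors Ptf1a and Bhlha15 (Mist1) belong. Sequences are from RefSeq, were located in mm9 by exact match, and are written 5′ to 3′ on the strand of the gene. The Rab3b region is chr4:108551425-108551674 (plus strand), the Rab3d region chr9:21722628-21722877 (minus strand) and the Rab25 region chr3:88352202-88352451 (minus strand).
Rab3b: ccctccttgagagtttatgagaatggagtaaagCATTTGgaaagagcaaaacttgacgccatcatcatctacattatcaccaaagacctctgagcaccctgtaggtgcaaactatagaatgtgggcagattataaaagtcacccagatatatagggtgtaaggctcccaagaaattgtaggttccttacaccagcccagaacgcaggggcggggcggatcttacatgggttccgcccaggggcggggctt
Rab3d: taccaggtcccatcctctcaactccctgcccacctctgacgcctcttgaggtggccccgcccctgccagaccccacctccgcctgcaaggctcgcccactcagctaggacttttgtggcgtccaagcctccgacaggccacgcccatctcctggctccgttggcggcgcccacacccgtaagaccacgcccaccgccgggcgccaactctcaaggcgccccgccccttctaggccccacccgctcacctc
Rab25: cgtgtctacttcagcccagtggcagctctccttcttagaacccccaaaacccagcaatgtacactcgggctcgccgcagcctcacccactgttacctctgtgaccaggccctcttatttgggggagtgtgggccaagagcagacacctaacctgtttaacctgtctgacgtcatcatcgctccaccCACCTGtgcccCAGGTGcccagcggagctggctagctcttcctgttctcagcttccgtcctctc
Rab3b held 1 E-box, at -217 from the start, and Rab25 held 2, at -64 and -53, while Rab3d held none in this window. An E-box was found in 66.2% of all 32851 RefSeq promoters of this length and in 65.5% of the 116 promoters of the 87 members that matched, so its presence is common. The GC content was 48.8% for Rab3b, 69.2% for Rab3d and 58.4% for Rab25. CATATG, an E-box form known for Bhlha15, and ATGCAAAT, the octamer known for POU factors such as the tuft cell factor Pou2f3, were in none of these 3 windows. CATATG was in 3.46% of all promoters and 1.72% of member promoters, and ATGCAAAT in 1.6% and 2.59%. A match describes letters and is not a binding site. Bhlha15 itself was listed at 5.85 to 7.91 in non-tuft and 2.35 to 3.28 in tuft libraries, and Ptf1a at 4.03 to 5.17 and 0 to 0.62.

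Rab27a (chr9:72892672-72945399) docks secretory and lysosome-related granules at the cell cortex. Its level was 4.95, 3.64, 3.36, 3.98 and 4.84 in non-tuft libraries and 6.94, 6.34, 6.23, 5.30 and 6.36 in tuft libraries. Here too no tuft library reached down to a non-tuft one, and the difference was 2.08 (SE 0.46), or 4.23-fold (adjusted p = 0.00906). Its fold lay near the limit, and the call ended for the fold without any 1 of 3 libraries (non-tuft 2 and 3, tuft 1), where the lowest difference was 1.88. Rab27b, its paralogue on zymogen granules, stood at 6.64, 6.39, 6.09, 3.02 and 6.19 in non-tuft libraries and 6.76, 7.13, 7.83, 6.78 and 7.75 in tuft libraries. Its groups did not overlap either, but non-tuft library 4 was far below the rest, and the difference of 1.58 (SE 0.64) did not pass (adjusted p = 0.14). Without non-tuft library 4 the Rab27b difference was 0.92. Of the other secretory Rabs, Rab3a differed by -0.20 and Rab37 by -0.35, and neither passed.

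Rab25 (chr3:88345951-88352222), the epithelial member of the Rab11 family, acts in apical recycling. It was the highest member in 9 of 10 libraries, with Rab1 above it in non-tuft library 1. Its level was 7.85, 8.03, 8.77, 8.61 and 8.36 in non-tuft libraries and 9.10, 10.31, 11.79, 11.03 and 11.21 in tuft libraries, with no overlap. The mean was 10.69 ± 1.03 (SD, n = 5) in tuft cells and 8.33 ± 0.38 (SD, n = 5) in non-tuft cells, a difference of 2.37 (SE 0.50), or 5.15-fold (adjusted p = 0.00733). Rab25 was called with 10 in place of 1 added to RPKM before the logarithm, a setting under which the other 7 higher members lost their call. The 7 lost it for the fold only, with adjusted p by limma from 0.000405 (Rab4a) to 0.00847 (Rab2b). Of all genes, 1.33% were called higher at this setting, from 4.32%. With non-tuft libraries 3 and 4 alone as the non-tuft group the Rab25 difference was 2.00 (SE 0.71), which did not pass (adjusted p = 0.154). Its relatives Rab11a (1.04, adjusted p = 0.218) and Rab11b (0.72, adjusted p = 0.23) did not pass.

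**Figure D2:**
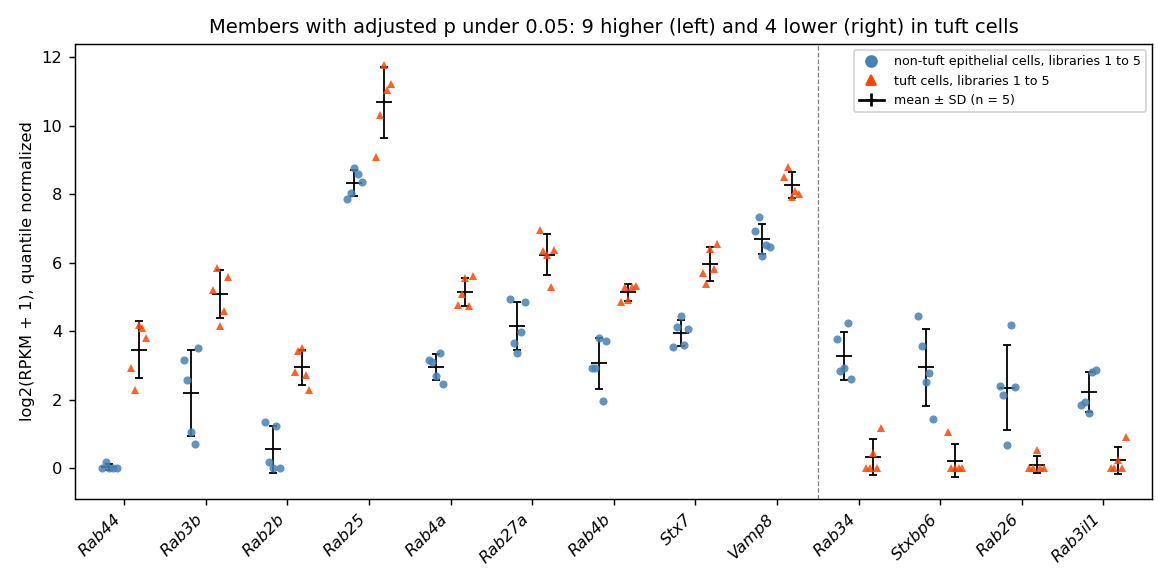
Level (log2(RPKM + 1), y axis) of the 13 members with an adjusted p under 0.05 in each library of the non-tuft and tuft groups. Points are single libraries and bars are group means with SD, and in each of the 13 members the tuft and non-tuft libraries did not overlap.

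Rab4a and Rab4b, which return cargo from early endosomes to the cell surface, both rose. Rab4a (chr8:126329885-126359187) was at 3.16, 3.12, 2.69, 3.37 and 2.47 in non-tuft libraries and 4.78, 5.09, 5.55, 4.72 and 5.60 in tuft libraries. Rab4b (chr7:27953443-27963915) was at 2.92, 2.94, 3.79, 1.95 and 3.72 in non-tuft and 4.85, 5.29, 4.90, 5.30 and 5.32 in tuft libraries. In both genes all tuft libraries lay above all non-tuft ones. The differences were 2.19 (SE 0.38), or 4.56-fold (adjusted p = 0.00212), for Rab4a, and 2.07 (SE 0.42), or 4.20-fold (adjusted p = 0.00592), for Rab4b. Both lay near the fold limit: the Rab4a call ended without library 5 of the 2 groups (1.95) and the Rab4b call without non-tuft library 4 (1.79), while the adjusted p stayed under 0.05. Among the 13 Rabs of early and recycling endosomes, 2 were called, 11 had a positive difference, and the median was 0.97. Of all 12160 listed genes, 4.32% were called higher, 6186 had a positive difference, and the median was 0.02. Those that did not pass include Rab5b (0.97, adjusted p = 0.141), Rab5a (1.18, adjusted p = 0.191) and Rab14 (0.51, adjusted p = 0.413).

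Rab44 (chr17:29272001-29285925), an unusually large Rab GTPase known from the granules and lysosomes of mast cells and osteoclasts, was listed at floor level in all 5 non-tuft libraries. In tuft libraries 1 to 5 it was at 2.94, 2.27, 4.18, 4.11 and 3.80. The groups did not overlap (adjusted p = 0.000245), and since 1 group was at floor level no fold is given. The Rab44 call rests on a difference of 3.42 whose size is set by the constant added to RPKM. It was 6.40 with 0.1 added and 1.04 with 10 added. Late endosome and lysosome Rabs otherwise did not pass, with Rab7, the general late endosome Rab, at -0.08 (adjusted p = 0.942) and Rab9 at 0.75 (adjusted p = 0.374).

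Rab2b (chr14:52881434-52899220), which acts between the ER and Golgi, was at 1.35, 0.17, 0, 1.23 and 0 in non-tuft libraries and 2.82, 3.43, 3.50, 2.72 and 2.27 in tuft libraries. It was at floor level in 3 non-tuft libraries and above every non-tuft value in each tuft library, with a difference of 2.40 (SE 0.44), or 5.28-fold (adjusted p = 0.00316). Rab2b overlaps Tox4 on the other strand, and the sources do not say that counting used strand, but Tox4 differed by 0.15 (adjusted p = 0.915). Its paralogue Rab2a, at a higher level in both groups, differed by -0.47 (adjusted p = 0.561). Rab1, the abundant ER-to-Golgi Rab, was at 8.14, 7.89, 8.00, 8.03 and 8.35 in non-tuft libraries and 6.56, 7.06, 8.25, 7.32 and 8.55 in tuft libraries. These ranges overlapped, with a difference of -0.53 (SE 0.44, adjusted p = 0.499).

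Of the SNAREs, the syntaxin Stx7 and the R-SNARE Vamp8 rose, both known for fusion at late endosomes. Stx7 (chr10:23869123-23908765) was at 3.53, 4.12, 4.45, 3.58 and 4.06 in non-tuft libraries and 5.71, 5.37, 6.40, 5.83 and 6.54 in tuft libraries. Vamp8 (chr6:72335217-72340697) was at 6.94, 7.33, 6.19, 6.53 and 6.46 in non-tuft and 8.52, 8.81, 7.92, 8.09 and 8.00 in tuft libraries. Neither gene's groups overlapped. The Stx7 difference was 2.02 (SE 0.39), or 4.06-fold (adjusted p = 0.00414), and the Vamp8 difference was 1.57 (SE 0.38), or 2.98-fold (adjusted p = 0.0161). Stx7 therefore lay just inside the fold limit, and it lost its call for the fold, not for the p, without any 1 of 4 libraries (non-tuft 1 and 4, tuft 3 and 5). Of the other 12 syntaxins none passed, nor did the other 5 Vamps, the 4 Snaps or most of all listed genes (10732 of 12160). Stx12 came nearest among the syntaxins (1.43, adjusted p = 0.0677).

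Those members that fell in tuft cells were each at or near the floor there. Rab34 (chr11:78001932-78005695), a Golgi and ciliary Rab, was at 3.76, 2.83, 2.92, 4.25 and 2.60 in non-tuft libraries and 0, 0, 0.44, 0 and 1.19 in tuft libraries. Stxbp6 (chr12:45953475-46175480), also called amisyn, which binds syntaxins and restrains fusion, was at 4.44, 3.56, 2.52, 2.77 and 1.43 in non-tuft libraries and 1.07, 0, 0, 0 and 0 in tuft libraries. No tuft library reached a non-tuft one in either gene. Rab34 fell by 2.94 (SE 0.44), or 7.70-fold (adjusted p = 0.000921), and Stxbp6 by 2.73 (SE 0.54), or 6.64-fold (adjusted p = 0.00477). With most libraries of a group at 0 the constant added to RPKM sets the size of such differences: Rab34 was at -5.24 with 0.1 added and -0.89 with 10 added, Stxbp6 at -5.31 and -0.79, Rab26 at -4.75 and -0.58, and Rab2b at 4.27 and 0.68.

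Rab26 (chr17:24664740-24670692) is known for the maturation of secretory granules in acinar cells. It was at 2.39, 2.14, 0.67, 4.18 and 2.36 in non-tuft libraries and 0, 0, 0.53, 0 and 0 in tuft libraries. The groups were separate by a narrow margin, between non-tuft library 3 and tuft library 3, and Rab26 fell by 2.24 (SE 0.55), or 4.73-fold (adjusted p = 0.0169). It lost its call by the fold without non-tuft library 4, where the difference was -1.79, and by the adjusted p with fewer libraries at about the same difference, at -2.21 without library 5 of the 2 groups (adjusted p = 0.0811) and at -2.32 with non-tuft libraries 3 and 4 alone (adjusted p = 0.169). Rab3il1 (chr19:10076159-10112870), an exchange factor that activates Rabs, was at 1.85, 1.93, 1.60, 2.80 and 2.87 in non-tuft libraries and 0, 0, 0.24, 0 and 0.91 in tuft libraries. With no overlap and a difference of -1.98 (SE 0.40, adjusted p = 0.00591), it lay just outside the fold limit at 3.96-fold.

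Most listed members of the acinar zymogen-granule machinery did not pass the test, nor did most of all listed genes, while most of its listed cargo genes fell. Of 18 listed members of that machinery, Rab27a and Vamp8 rose, Rab26 fell, and 15 did not pass the test. Of all 12160 listed genes, 10732 did not pass, so the 15 are not read as a result about the machinery. The 18 had 13 positive differences and a median of 0.68. This list takes members by name, so the further exocytosis genes described below are not in it. Among those, Rabgap1l was called higher, and Rph3al (of exocrine and endocrine granules), Tmed6 and Cplx2 were called lower. Of 20 listed genes for the content and membrane of the granule, 15 fell and 0 rose by limma (0 also at an unadjusted p under 0.05), with a median of -4.15. Of all listed genes, 5.55% fell by the adjusted p of the same fit. Gp2, the main glycoprotein of the granule membrane, was at 7.40 to 9.91 in non-tuft libraries and 2.87 to 4.05 in tuft libraries. The pancreatic amylase Amy2a5 was at 12.63 to 13.27 and 5.55 to 11.35. Enzyme RNA thus remained in tuft libraries, with Amy2a5 highest in library 4 and lowest in library 5, as the summed acinar markers were. The part of that acinar RNA in the levels of the machinery was not tested.

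Within the machinery, Vamp2, an R-SNARE of the granule, was at 3.68, 2.76, 2.82, 1.17 and 2.95 in non-tuft libraries and 3.66, 3.92, 4.82, 3.98 and 3.95 in tuft libraries. The groups met at about the same value and Vamp2 did not pass (1.39, SE 0.48, adjusted p = 0.0822). The apical syntaxin Stx3 was at 2.78, 3.72, 2.82, 4.92 and 2.93 in non-tuft and 5.20, 4.87, 4.91, 4.36 and 4.30 in tuft libraries, where non-tuft library 4 alone reached into the tuft range (1.30, SE 0.47, adjusted p = 0.101). Stxbp2 (Munc18b), the partner of Stx3, was at 4.38, 4.68, 6.29, 6.27 and 6.38 in non-tuft and 6.83, 6.29, 6.67, 6.74 and 6.97 in tuft libraries (1.10, SE 0.48, adjusted p = 0.172). Among the rest, Stxbp3 (1.29), Snap29 (1.07) and Rab11a (1.04) had the larger positive estimates, and Sytl1 (-1.69), Sytl4 (-1.21) and Syt3 (-0.78) the negative ones. Single libraries moved several of these, with Rab11a at 0.64 without non-tuft library 2, Sytl4 at -0.73 without non-tuft library 1 and Syt3 at -0.31 without non-tuft library 3. Snap23 (0.33), Stx4a (0.21), Stx2 (0.07) and Unc13b (-0.14) were close to 0, with standard errors that leave moderate differences in either direction possible.

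**Figure D3:**
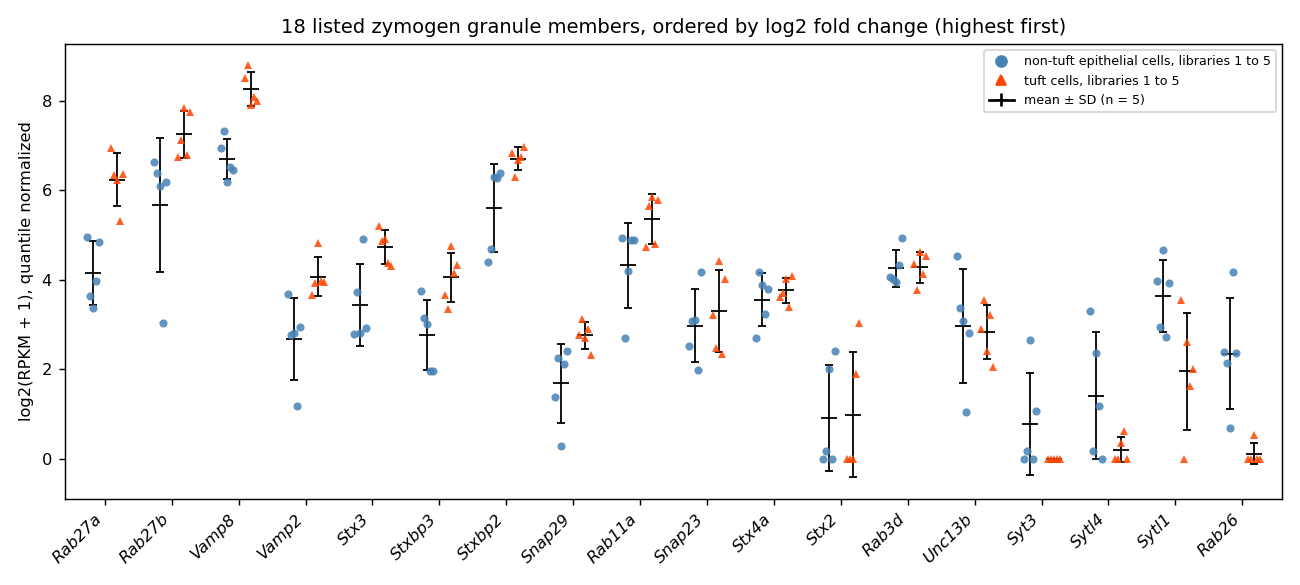
Level (log2(RPKM + 1)) of the 18 listed members of the zymogen-granule machinery in each library. Points are single libraries, coloured by group, with bars for the mean and SD (n = 5), and the ranges of the groups overlap in most of these genes, Rab26, Rab27a, Rab27b and Vamp8 being the 4 where they do not.

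Paralogues were set beside each other within each library, as the first level minus the second, which is a description with no test. Of 12 pairs with both genes listed, 9 were set first, and 0 of these 9 had groups without overlap. Among all 12, Rab3d minus Rab3b was the 1 pair whose groups did not overlap. The difference was 0.88 to 3.63 in non-tuft libraries (mean 2.06) and -2.09 to 0.45 in tuft libraries (mean -0.81), so Rab3d was the higher isoform in all non-tuft libraries and Rab3b in 4 of 5 tuft libraries. This pair was added after the levels had been seen, so its separation adds no separate support to the Rab3b call. Rab27b minus Rab27a ran from -0.96 to 2.75 in non-tuft and from -0.19 to 1.60 in tuft libraries. Vamp8 exceeded Vamp2 by 3.26 to 5.36 in non-tuft and 3.09 to 4.89 in tuft libraries, which places Vamp8 as the higher of these R-SNAREs in every library. Rab25 likewise exceeded Rab11a throughout, with Rab11a minus Rab25 at -5.33 to -2.92 in non-tuft and -6.23 to -4.38 in tuft libraries.

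**Figure D4:**
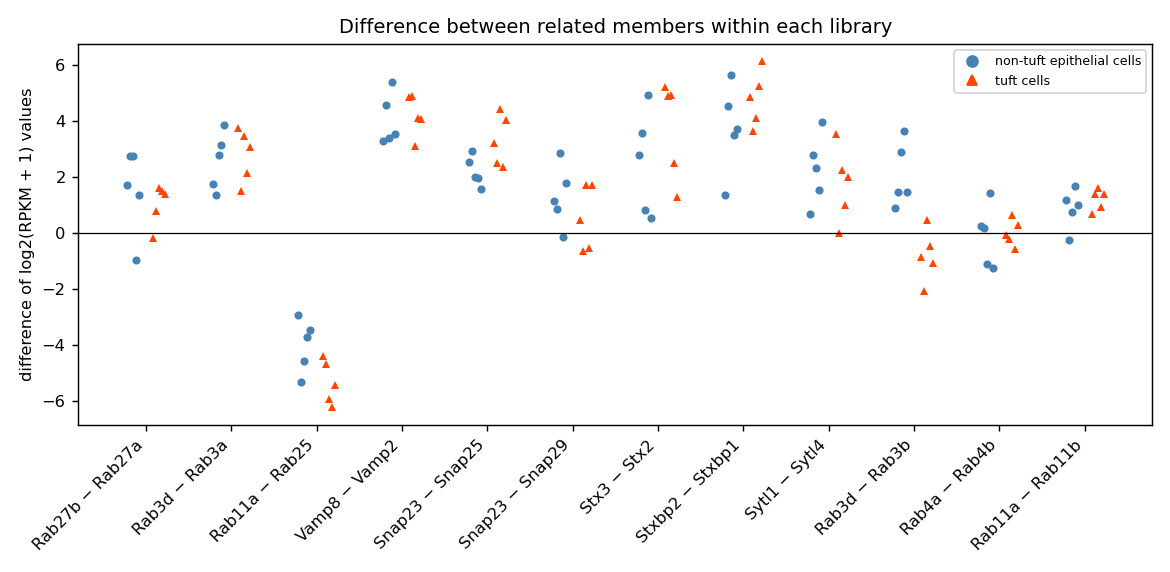
Difference in level between paralogues (log2, first gene minus second) in each library. Points are libraries of the non-tuft and tuft groups, and Rab3d minus Rab3b, at 0.88 to 3.63 against -2.09 to 0.45, is the pair without overlap. It was added after the levels had been seen.

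By level in tuft cells the members ran from Rab25 (10.69 ± 1.03, SD, n = 5) through Vamp8 (8.27 ± 0.38), Rab1 (7.55 ± 0.83), Rab27b (7.25 ± 0.52), Rab14 (7.01 ± 0.27) and Stxbp2 (6.70 ± 0.26) to Rab8a (6.30 ± 0.56) and Rab27a (6.24 ± 0.59). Vamp8 and Rab1 lay within the sum of their SDs, as did each later neighbour in this order, while Rab25 stood above. Rab27a ranked 8 among members in tuft cells and 22 in non-tuft cells, and Stx7 ranked 10 and 24. Most members were measured in every library: 66 were above the floor in all 10, and 8 to 28 members were at floor level in a single non-tuft library against 13 to 25 in a tuft library.

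Of 10 listed members known for neuronal and endocrine granules, none passed by limma, nor did most of all listed genes (10732 of 12160). At an unadjusted p under 0.05, 1565 of all listed genes were higher and 1488 lower. In the list of 10 there were 1 higher (Vamp2) and 3 lower at that p, with a median of -0.56. That list does not hold the secretory Rabs Rab3b and Rab27a, which were called higher. Snap25, the neuronal target SNARE, was at floor level in all 5 tuft libraries and at 0, 0.17, 1.10, 0 and 2.61 in non-tuft libraries. Stxbp5l (tomosyn-2) was at 1.28, 4.09, 1.61, 0 and 1.03 in non-tuft libraries and Sytl5 at 3.12, 2.04, 0.02, 1.48 and 0.26, and both were at floor level in every tuft library. Syt13 was at 3.36, 2.74, 2.40, 0 and 0.51 in non-tuft and at 1.64, 0, 0, 0 and 0 in tuft libraries. The summed level of 18 islet markers was 7.23 in non-tuft library 4 and 10.24 to 14.50 in the other non-tuft libraries, against 7.54 to 8.32 in tuft libraries, and its part in these levels was not tested. Rab3c, Stx1a, Syt1, Syt4, Syt7 and Unc13a are among the genes of that list that the table does not hold.

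Members known from the granules of mast cells and other leukocytes numbered 11 listed, of which Rab27a was called higher, Vamp8 passed by the adjusted p, and 9 did not pass, with a median of 0.33. Of all 12160 listed genes, 4.32% were called higher and 10732 did not pass, so these counts are not read as a result about the list. Stx11, a syntaxin of cytotoxic granules, was at most 0.47 in tuft libraries and 2.08 in non-tuft libraries, and Rab37 at most 0.95 and 2.29. Of 16 leukocyte markers 8 were listed, and 2 were called higher in tuft cells. These were Kit, at 3.36 to 5.41 against 1.33 to 3.63, and Ptprc, the gene of Cd45, at 2.74 to 4.33 against 0 to 1.93 (adjusted p = 0.00292). The summed level of the 8 was 4.86 to 6.10 in tuft and 2.44 to 5.85 in non-tuft libraries, and from 1 to 6 of them were at floor level in each library. Both groups were sorted as Cd45-neg; EpCAM+, a gate meant to leave out leukocytes, and whether leukocyte RNA has a part in the levels of Rab44, Rab27a or Vamp8 was not tested.

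All 9 listed exocyst subunits failed to pass, and none had an unadjusted p under 0.05 by limma. Of all 12160 listed genes, 10732 did not pass and 3053 had an unadjusted p under 0.05. The counts are therefore not read as a result about the exocyst. Differences of the 9 subunits ran from -0.95 (Exoc8) to 0.96 (Exoc2), with a median of 0.32. Exoc5, the subunit with the highest mean level, was at 4.13, 5.33, 3.98, 2.97 and 3.21 in non-tuft and 4.56, 3.54, 3.88, 3.59 and 4.31 in tuft libraries. The groups overlapped throughout, and 8 of the 9 subunits were above the floor in all libraries. The 3 synaptotagmin-like genes had negative estimates with a median of -1.38, and none passed.

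A list of 51 further listed exocytosis genes whose names the rule does not take held 1 gene called higher and 3 called lower, with a median of 0.25. Of all listed genes, 4.32% were called higher and 3.99% lower, so these counts are not read as a result about the list. Rabgap1l, a GTPase-activating protein for Rabs, was at 4.03, 4.90, 4.86, 3.11 and 4.62 in non-tuft and 7.12, 7.17, 5.92, 6.19 and 5.99 in tuft libraries (2.17, SE 0.47, adjusted p = 0.00805). Rph3al (Noc2), an effector of Rab3 and Rab27 on exocrine and endocrine granules, was at 5.59, 4.28, 3.34, 5.53 and 5.36 in non-tuft and 1.63, 0, 2.79, 1.63 and 1.54 in tuft libraries. Neither gene's groups overlapped, and Rph3al fell by 3.30 (SE 0.58, adjusted p = 0.00258). Also called lower were Tmed6, a cargo carrier of the early secretory pathway (-2.61, adjusted p = 0.00228), and Cplx2, a complexin that clamps SNARE complexes (-2.04, adjusted p = 0.0176). The Cplx2 call ended for the fold without any 1 of 4 libraries (non-tuft 1 and 2, tuft 4 and 5), at -1.69 without non-tuft library 1, and it did not pass when centred on ribosomal protein genes (-1.33, adjusted p = 0.0912), without library 5 of the 2 groups (-2.05, adjusted p = 0.0696) or with non-tuft libraries 3 and 4 alone (-1.23, adjusted p = 0.148). With those 2 non-tuft libraries Rabgap1l (2.49, adjusted p = 0.0567) and Rph3al (-2.92, adjusted p = 0.0956) did not pass either, and the Rabgap1l call ended for the fold without non-tuft library 4. At a smaller fold, Doc2a (1.47, adjusted p = 0.0222) was among the genes that rose, and the Golgi SNARE Bet1 fell by 1.54 (adjusted p = 0.0176).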

How the data were processed

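RNA was sequenced by the study with Smart-Seq2, and the authors mapped reads to mm9 with HISAT2, quantified RPKM with StringTie and Ballgown, removed genes of low variance and took log2(RPKM + 1), which they quantile normalized. The deposited log2 values of 12160 genes in 10 libraries were used. The table's columns of the authors' own comparison, holding a fold, p-values and false discovery rates, were not used. Groups came from the sample titles.

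All genes were fitted in R 4.3.3 with limma 3.58.1 (lmFit, then eBayes), without covariates and with Benjamini-Hochberg adjustment, after a test on simulated data. Exact two-sided permutation tests over 252 divisions of the libraries gave p = 0.00794, the smallest they allow, for each of the 13 members that passed. Groups that do not overlap always give this p. Rab27b, Rab5b and Sytl5, which did not pass by limma, had it too, so it adds no separate support. Members and lists were chosen with earlier results of these data known. Named genes were the called members, those with an adjusted p under 0.05, members of the granule lists, the highest member of each role, paralogue pairs and called genes of the further list, and others were named after their values were seen. Libraries of a group came from separate mice for tuft cells, and replicate numbers are not stated to pair groups. Figures were drawn with matplotlib 3.10.9.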

Additional observations from a re-analysis of the deposited data

Results flagged for a closer look

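The named members were examined for a single library far from the other 4 of its group, by Dixon's ratio at the 95% level (0.71 for 5 samples). Of 94 groups over 47 members, 12 had such a library. The nominal rate of about 1 in 20 is not a fair comparison here. Where the other 4 values are tied at 0, any value above them is flagged, and groups at 0 throughout cannot be flagged. In tuft libraries the flagged values were Rab37 (0.95), Stxbp6 (1.07) and Syt13 (1.64) in library 1, Rab26 (0.53) and Vamp2 (4.83) in library 3, and Rab3il1 (0.91) and Stx11 (0.47) in library 5. In non-tuft libraries they were Rab10os in library 1 (1.54), Rab44 in library 2 (0.17, the floor of that library), Rab27b in library 4 (3.02), and Rab37 (2.29) and Stx11 (2.08) in library 5. In Rab26, Rab37, Stx11, Stxbp6 and Syt13 the other 4 tuft libraries were listed at 0, so each is a single value above the floor. Rab27b and Vamp2 were above the floor in every library. Library 5 is also the library with fibroblast and endothelial markers in both groups, and the part of those cells in Rab37 and Stx11 was not tested.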

How the results depend on the processing

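The members called higher (8) became 1 with 10 added to RPKM, 14 when centred on ribosomal protein genes and 0 by limma's treat, which tests the fold of 4 itself (1 had an unadjusted p under 0.05), and 6 to 8 with each library left out. Those called lower (3) became 5 with 0.1 added, 0 with 10 added, 0 with a mean log2 of at least 2, a filter that removes all 3, and 0 by treat (1 at an unadjusted p under 0.05), and 2 to 4 with each library left out. For the further exocytosis genes, the 1 called higher became 2 with 0.1 added, 0 with 10 added, 5 when centred, 3 at a fold over 2, 3 with no fold limit, 2 with non-tuft libraries 3 and 4 only and 0 by treat (0 at an unadjusted p), and 0 to 2 with each library left out, 0 being without non-tuft library 4. The 3 called lower became 0 with 10 added, 1 when centred, 1 with non-tuft libraries 3 and 4 only and 0 by treat (1 at an unadjusted p), and 2 to 3 with each library left out. With 10 added no lower member or further gene had an unadjusted p under 0.05 beside a fold over 4. Higher members that lost their call with 10 added lost it for the fold only. The share of all genes called moved too: called higher were 1.33% with 10 added, 9.1% when centred and 0.485% by treat (from 4.32%), and called lower 4.46% with 0.1 added, 0.954% with 10 added, 2.01% when centred, 4.73% with the mean filter and 0.378% by treat (from 3.99%). The cause of these changes was not tested. Without single libraries, the calls lost for the fold were Stx7, Rab27a (non-tuft 2 or 3, tuft 1), Rab4b and Rab26 (non-tuft 4), while all 13 members kept an adjusted p under 0.05.

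With the replicate number as a block, 9 members were higher (Rab38 added) and 3 lower, and 2 further genes higher. Both groups came from the same mice, but no source says that a number marks a mouse. Same-numbered libraries correlated at 0.08 to 0.24, and 4 of 5 tuft libraries correlated best with their own number. The numbers were not taken as pairs because the correlation was not above 0.1 in every pair. That limit cannot exclude a pairing, so whether the main fit leaves out a pairing was not settled. Library 5 of both groups was also the one with all listed fibroblast and endothelial markers above the floor. Standard errors and adjusted p values of the main fit are unpaired. Using non-tuft libraries 3 and 4 only gave 7 and 2 members and leaving out library 5 of both groups 6 and 2, both chosen after seeing the data. Of 1113 alternative values for 54 named genes, 1045 kept their side of the threshold, 49 lost the threshold and 19 reached it. Among the 1045, 53 values in 14 genes changed sign, all without passing in either fit. Unknown depth limits all levels near the floor.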

Other observations

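Several members outside the rule for named genes, chosen here after their values were seen, were variable within a group. Rab38, a Rab of lysosome-related organelles, was at 0, 4.46, 1.61, 0 and 1.83 in non-tuft libraries and 4.62, 4.35, 4.42, 2.92 and 3.57 in tuft libraries (difference 2.40, SE 0.76, adjusted p = 0.0587), so it was above the floor in all tuft libraries but missed the threshold. Rab38 was called with the replicate number as a block and when centred on ribosomal protein genes. It was also called without non-tuft library 2 and with non-tuft libraries 3 and 4 alone. Rab36 was listed at 0 in all tuft libraries and reached 5.49 and 2.55 in non-tuft libraries 1 and 5. Rab31 was at floor level in every non-tuft library and at 0.60, 0, 0, 4.26 and 1.41 in tuft libraries. Rab19 was at floor level in non-tuft libraries 1 and 2 and at 3.62 to 4.78 in the other 3, against 3.75 to 4.86 in tuft libraries. In the main fit none of these 4 genes passed the test.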
